A study of Homo sapiens with 6 samples.

Results

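The genes described here are the D cyclins CCND1, CCND2 and CCND3, their kinases CDK4 and CDK6, the kinase inhibitors CDKN2A, CDKN2B, CDKN2C and CDKN1B, and RB1, the substrate that the kinases phosphorylate. These 10 genes were chosen by name for their place in 1 pathway, with earlier results of the same arrays known. Among these results was an intensity of CCND2 lower than in control cells under both hairpins. Their intensities and differences are therefore given as a description, without a test. The platform annotation names 15 probes for 9 of the 10 genes, of 47323 probes on the array, and no probe for CDKN2C. Of the 15 probes, 13 were kept by the filter on dim probes, which asked for an intensity above 16.5 on both arrays of at least 1 group, and 6 were above that threshold on all 6 arrays.

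D cyclins are made when growth signals reach a cell in G1, and each binds CDK4 or CDK6. The active kinases phosphorylate RB1, which then lets go of E2F transcription factors, and these switch on the genes of DNA replication. The INK4 proteins, encoded by CDKN2A, CDKN2B and CDKN2C, bind CDK4 and CDK6 and keep D cyclins off them, while p27, encoded by CDKN1B, binds cyclin-kinase complexes and restrains those that contain CDK2. In the intestinal epithelium the pathway lies downstream of Wnt signalling, and CCND1 is a textbook target of beta-catenin and TCF factors.

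RNA came from LoVo, a human cell line established from a colorectal adenocarcinoma, in which lentiviral vectors had been stably introduced and which were grown in puromycin. The groups were cells with hairpin shLGR5-1, cells with hairpin shLGR5-2, and shCTL cells with the pLKO.1 control vector, with 2 arrays in each of the 3 groups. LGR5, the target of both hairpins, is a receptor for R-spondins, which enhance Wnt signalling. Each hairpin is 1 cell line, so the effect of losing LGR5, other effects of a hairpin and the history of a line cannot be told apart within 1 comparison.

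The intensities are linear fluorescence values that the authors had normalized, and a fold change or difference is on the log2(intensity + 16) scale with its standard error (SE) unless it is given as a bound. LGR5 read -1.1 and 7 in shLGR5-1 cells and 12.5 and 19.2 in shLGR5-2 cells, against 44.4 and 49.2 in shCTL cells, so its only probe was dim even in the control. Between 20641 and 20705 probes per array were above the threshold, and replicate arrays correlated at 0.974 for shLGR5-1, 0.986 for shLGR5-2 and 0.991 for shCTL over the log2 values of the 12111 genes tested. Of 11 markers of colorectal epithelium, 11 were above the threshold on both arrays in shLGR5-1 cells (summed intensity 46030 to 46800), 8 in shLGR5-2 cells (53340 to 53890) and 11 in shCTL cells (42170 to 42520). KRT20, LGALS4 and VIL1 were the 3 not above it under shLGR5-2. None of 3 endothelial markers was above it on both arrays of any group. Of 5 fibroblast markers DCN alone was, in shLGR5-2 cells, and of 4 leukocyte markers with a probe CD14 alone was, with both hairpins but not in shCTL cells. The part of these markers' states in the results was not tested. Fewer cells in a state and less RNA per cell cannot be told apart in these bulk samples.

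Among the D cyclins, each gene had its own pattern. CCND1 was higher under shLGR5-2 alone, CCND2 was lower with both hairpins and near or below the noise under shLGR5-2, and CCND3 was higher by about the same amount with both.

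The CCND1 probe read 3731 and 3496 in shLGR5-1 cells and 13705 and 12672 in shLGR5-2 cells, against 3557 and 3796 in shCTL cells. The shLGR5-1 and shCTL arrays overlapped, and both shLGR5-2 arrays stood far above the other 4. The log2 difference from shCTL was -0.03 under shLGR5-1, with a 95% interval of -0.32 to 0.28, and 1.84 ± 0.12 (SE) under shLGR5-2, a 3.58-fold higher intensity.

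CCND2 has 2 probes. The brighter read 1718 and 1678 in shLGR5-1 cells and -1.70 and -0.50 in shLGR5-2 cells, against 5712 and 6593 in shCTL cells. The 3 groups did not overlap: shLGR5-1 was 3.59-fold lower than shCTL, and shLGR5-2, where neither array was above the threshold, was at least 373-fold lower than shCTL and at least 103-fold lower than shLGR5-1. The second probe read 511.7 and 594.7 in shLGR5-1 cells and 15.3 and 42.6 in shLGR5-2 cells, against 1942 and 2167 in shCTL cells. Its order of groups was the same, but 1 of the 2 shLGR5-2 arrays lay above the threshold, and the fold against shCTL was 48.3 there and 3.64 under shLGR5-1. Under shLGR5-1 the log2 differences from shCTL were -1.84 ± 0.12 by the brighter probe and -1.87 ± 0.32 by the second. Under shLGR5-2 the brighter probe gives only a bound, taken without the offset, of at least 373-fold. That bound lay above the second probe's 48.3-fold, which includes the offset. The 2 probes thus differed in size there, and neither size is exact so near the noise.

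CCND3 read 1676 and 1725 in shLGR5-1 cells and 1660 and 1705 in shLGR5-2 cells, against 559.5 and 570.1 in shCTL cells. All 4 hairpin arrays lay above both controls and the hairpins overlapped. The fold over shCTL was 2.96 under shLGR5-1 and 2.92 under shLGR5-2, and the log2 difference between shLGR5-2 and shLGR5-1 was -0.02, with a 95% interval of -0.29 to 0.25.

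**Figure D1:**
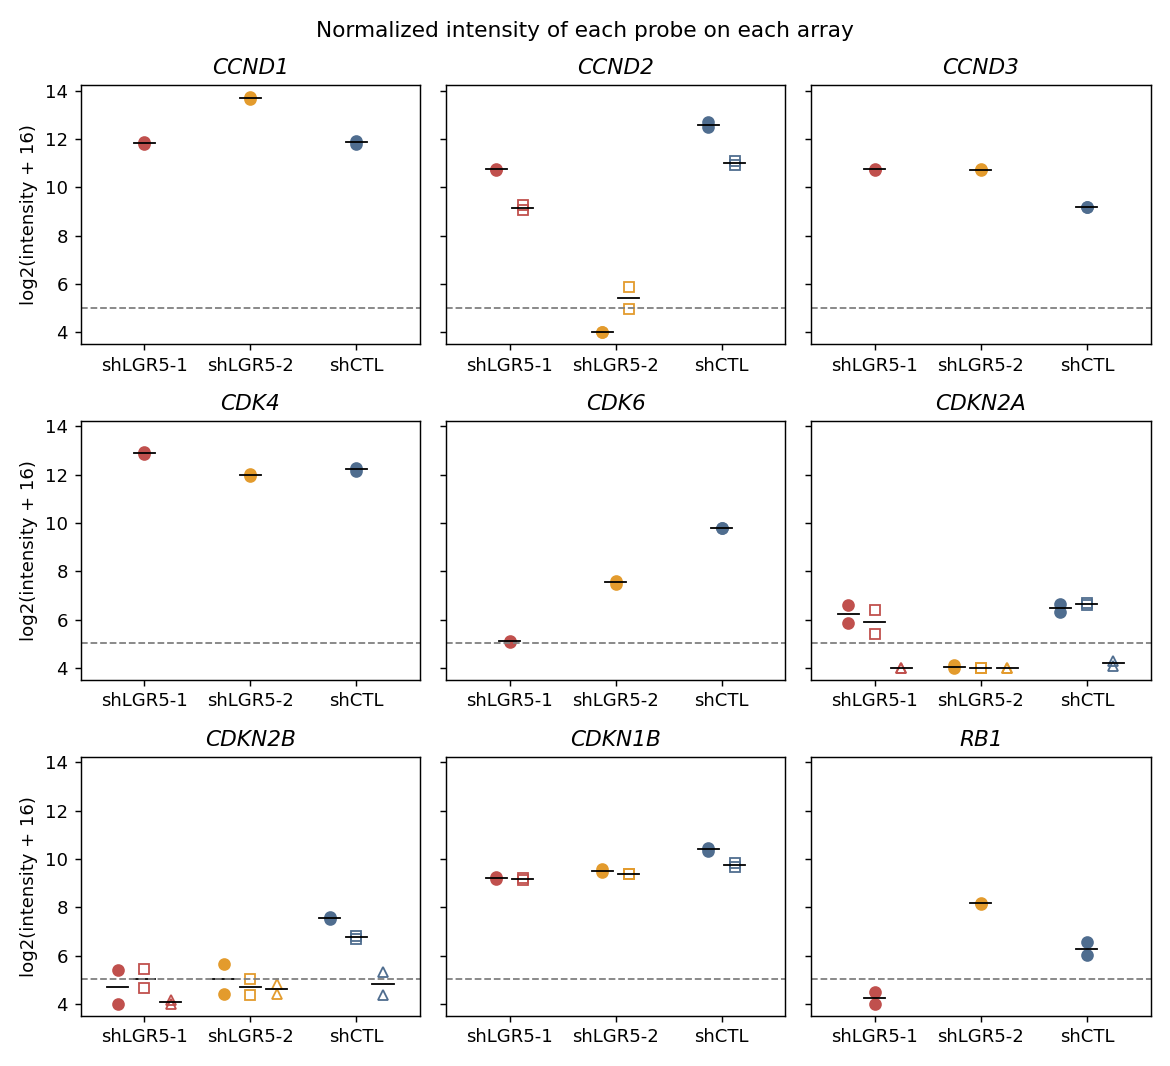
Normalized intensity of each probe of the 9 genes on each array, as log2(intensity + 16) with values below 0 set to 0, for shLGR5-1, shLGR5-2 and shCTL cells. Filled circles are the brightest probe of a gene, open squares and triangles its other probes, bars the mean of the 2 arrays, and the dashed line the noise threshold of 16.5. CCND2 lies at the bottom of the scale under shLGR5-2 by its brighter probe, CDK6 just above the threshold under shLGR5-1, and RB1 on opposite sides of shCTL.

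The kinases went apart as well. CDK4 had the narrowest range of the members, while CDK6 was lower with both hairpins and most under shLGR5-1, the reverse of the order seen for CCND2.

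CDK4 read 7882 and 7500 in shLGR5-1 cells and 3980 and 4157 in shLGR5-2 cells, against 4944 and 4578 in shCTL cells. Both shLGR5-1 arrays were above the controls and both shLGR5-2 arrays below them. The log2 difference from shCTL was 0.69 ± 0.11 under shLGR5-1, a 1.61-fold higher intensity, and -0.23 ± 0.11 under shLGR5-2, with a 95% interval of -0.52 to 0.07.

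CDK4 is a known target of MYC, which binds E boxes, so the RefSeq promoter of CDK4 (GRCh38.p14, chr12:57752311-57752560, minus strand, the 250 bases before the gene's start) is shown with each E box, CACGTG, in capitals. The motif reads the same on both strands.
CDK4: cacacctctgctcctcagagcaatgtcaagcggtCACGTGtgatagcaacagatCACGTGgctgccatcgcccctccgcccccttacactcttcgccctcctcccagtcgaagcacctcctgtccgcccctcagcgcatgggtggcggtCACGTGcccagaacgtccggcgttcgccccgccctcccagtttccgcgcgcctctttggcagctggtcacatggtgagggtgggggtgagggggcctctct
It holds 3 E boxes. Of 35116 RefSeq promoter windows of that length, 0.0797% hold at least 3 and 6.34% at least 1. MYC, chosen after its values were seen, read 5308 and 5376 in shLGR5-1 cells and 2395 and 2135 in shLGR5-2 cells, against 4389 and 5156 in shCTL cells. It fell under shLGR5-2 (log2 fold change -1.07 ± 0.14, adjusted p = 0.00359 by limma) and was not called under shLGR5-1 (0.17 ± 0.14, adjusted p = 0.317). The motif match is a description of these letters and shows no binding in these cells.

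CDK6 read 18 and 19 in shLGR5-1 cells and 178.4 and 164.7 in shLGR5-2 cells, against 861.1 and 864.8 in shCTL cells. The groups did not overlap, and the shLGR5-1 arrays were only just above the threshold. CDK6 was 25.5-fold lower under shLGR5-1 (log2 difference -4.67 ± 0.11) and 4.69-fold lower under shLGR5-2 (-2.23 ± 0.11), and 5.43-fold higher under shLGR5-2 than under shLGR5-1.

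The probes of CDKN2A and CDKN2B were dim, at 174.6 or less on every array. CDKN2A encodes p16, an INK4 inhibitor, and in another reading frame ARF, which stabilises p53. Its probe annotated to the p16 transcript read 82.1 and 43.0 in shLGR5-1 cells and 1.40 and -11.2 in shLGR5-2 cells, against 63.2 and 83.6 in shCTL cells. The shLGR5-1 and shCTL arrays overlapped, and neither shLGR5-2 array was above the threshold, which makes shLGR5-2 at least 4.42-fold lower than shCTL and at least 3.61-fold lower than shLGR5-1. The probe annotated to the ARF transcript read 67.4 and 26.1 in shLGR5-1 cells and -10.6 and -8.10 in shLGR5-2 cells, against 87.1 and 80.8 in shCTL cells. It was at least 5.1-fold lower under shLGR5-2 than in shCTL cells, and its log2 difference under shLGR5-1 was -0.75, with a 95% interval of -1.61 to 0.11. The third probe did not pass the filter and read at most 3.70 on any array. The p16 and ARF transcripts share exons, and which of them a probe reads was not tested.

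CDKN2B encodes p15, the INK4 inhibitor known for its induction by TGF-beta. Its brightest probe read 25.9 and -5.30 in shLGR5-1 cells and 34.1 and 5.00 in shLGR5-2 cells, against 167.7 and 174.6 in shCTL cells. Only the controls were above the threshold on both arrays, so CDKN2B was kept through shCTL alone, and a difference was bound to appear. The log2 difference from shCTL was -2.85 ± 0.60 under shLGR5-1 and -2.53 ± 0.60 under shLGR5-2, and the hairpins overlapped. A second probe read 28 and 8.9 in shLGR5-1 cells and 16.3 and 4.70 in shLGR5-2 cells, against 97.3 and 87.0 in shCTL cells, at least 5.59-fold lower under shLGR5-2 than in shCTL cells. The third probe did not pass the filter, at 23.8 or less on every array.

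CDKN2A and CDKN2B lie side by side on chromosome 9, and neither had a probe above the threshold on both shLGR5-2 arrays, so their RefSeq promoters are shown (GRCh38.p14, minus strand, 250 bases before each start). They are the upstream CDKN2A start, which makes ARF (chr9:21995325-21995574), the downstream CDKN2A start, which makes p16 (chr9:21974858-21975107), and the CDKN2B start (chr9:22009306-22009555). Capitals mark GC boxes, GGGCGG on either strand, the letters bound by SP1.
CDKN2A, ARF start: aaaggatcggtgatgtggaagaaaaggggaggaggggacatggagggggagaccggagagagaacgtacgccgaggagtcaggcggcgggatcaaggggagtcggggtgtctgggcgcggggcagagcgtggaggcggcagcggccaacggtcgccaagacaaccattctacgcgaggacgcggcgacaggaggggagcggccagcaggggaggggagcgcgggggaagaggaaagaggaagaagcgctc
CDKN2A, p16 start: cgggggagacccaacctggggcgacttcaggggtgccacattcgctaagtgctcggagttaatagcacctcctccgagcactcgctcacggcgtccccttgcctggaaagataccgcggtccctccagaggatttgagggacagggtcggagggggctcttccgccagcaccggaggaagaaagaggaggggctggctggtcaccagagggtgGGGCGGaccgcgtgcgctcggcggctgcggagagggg
CDKN2B: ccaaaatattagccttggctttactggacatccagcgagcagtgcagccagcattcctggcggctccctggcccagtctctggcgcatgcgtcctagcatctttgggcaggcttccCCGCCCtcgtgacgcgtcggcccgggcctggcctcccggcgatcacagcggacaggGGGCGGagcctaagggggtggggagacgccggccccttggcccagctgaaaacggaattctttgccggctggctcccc
The ARF window holds 0 of these GC boxes, the p16 window 1 and the CDKN2B window 2. Of the 35116 windows, 42.6% hold at least 1 and 24.3% at least 2. None of the 3 windows holds the E2F core GCGGGAA on either strand, which 5.52% of all windows hold. In all, 14 such windows were listed for 8 of the 10 genes.

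CDKN1B was lower with both hairpins by both of its probes. The brighter read 588.1 and 558.8 in shLGR5-1 cells and 748.1 and 685.7 in shLGR5-2 cells, against 1396 and 1264 in shCTL cells. All 4 hairpin arrays lay below both controls, 2.28-fold lower under shLGR5-1 (log2 difference -1.19 ± 0.12) and 1.84-fold lower under shLGR5-2 (-0.88 ± 0.12). The second probe showed the same order with smaller differences, 1.47-fold lower under shLGR5-1 and 1.28-fold lower under shLGR5-2. It read 583.0 and 547.1 in shLGR5-1 cells and 648.8 and 653.8 in shLGR5-2 cells, against 795.6 and 885.7 in shCTL cells.

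RB1 was on opposite sides of the control. Its probe read 6.60 and -4.50 in shLGR5-1 cells and 265.8 and 273.2 in shLGR5-2 cells, against 48.5 and 78.9 in shCTL cells. Neither shLGR5-1 array was above the threshold and all groups stood apart. RB1 was at least 3.76-fold lower under shLGR5-1 than in shCTL cells, 3.65-fold higher under shLGR5-2 than in shCTL cells (log2 difference 1.87 ± 0.26), and at least 16.4-fold higher under shLGR5-2 than under shLGR5-1.

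The calls of the members are given beside those of all 12111 genes tested. Under shLGR5-1, 7 of 9 had an adjusted p below 0.05, 2 higher and 5 lower, where 71.8% of all genes were called, 40.3% higher and 31.5% lower. Under shLGR5-2, 8 of 9 were called, 3 higher and 5 lower, where 44.2% of all genes were called, 21.6% higher and 22.6% lower. That share depends on each array compared: 3148 genes were called without shCTL replicate 1, 3227 without shCTL replicate 2, 3920 without shLGR5-2 replicate 1 and 3990 without shLGR5-2 replicate 2, against 5349 with all arrays. Between shLGR5-2 and shLGR5-1, 6 of 9 were called, 3 higher and 3 lower, where 73.3% of all genes were called. Since the members were named with these contrasts known, nothing is read from their counts. CDKN2B was not called under shLGR5-1 without either shCTL array, nor under shLGR5-2 without either shCTL array or without shLGR5-2 replicate 2. CCND1 and CDKN2A were not called under shLGR5-1, and CDK4 was not called under shLGR5-2.

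**Figure D2:**
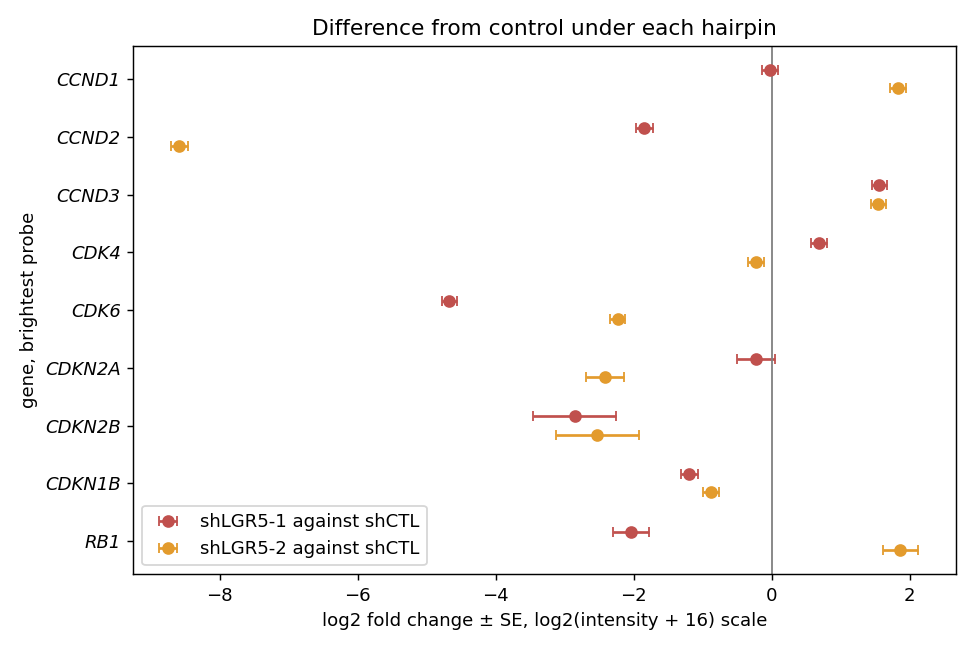
Log2 difference from shCTL of each gene's brightest probe, on the log2(intensity + 16) scale, under shLGR5-1 and under shLGR5-2; points are fitted differences and bars 1 SE. CCND2, CCND3, CDK6, CDKN2B and CDKN1B lie on the same side of 0 with both hairpins, RB1 and CDK4 on opposite sides. CCND2 and CDKN2A under shLGR5-2 and RB1 under shLGR5-1 had neither array above the threshold, so their plotted sizes depend on the offset.

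By the distance between their highest and lowest group means, the members ranked CCND2 (8.59 on the log2 scale), CDK6 (4.67), RB1 (3.91), CDKN2B (2.85), CDKN2A (2.41), CCND1 (1.86), CCND3 (1.56), CDKN1B (1.19) and CDK4 (0.92). The first 5 each had at least 1 group at or near the noise, where the size of a difference depends on the offset.

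CDK6 and RB1, both lower under shLGR5-1 than in shCTL cells, have the longest genomic spans of the members in the RefSeq annotation. Over 12101 tested genes with a span in the annotation, the genomic span of a gene and its log2 difference under shLGR5-1 had a Spearman correlation of -0.326, against 0.0106 under shLGR5-2. This is a description across genes that share the same arrays. Of the 559 genes at least as long as CDK6, the median log2 difference under shLGR5-1 was -0.55, and 0.716% were as low as CDK6 or lower. Of the 875 genes at least as long as RB1 the median was -0.56, and 22.6% were as low as RB1 or lower. CCND3, next in length, went the other way: of the 1652 genes at least as long the median was -0.58, and 96.2% were as low as CCND3 or lower. The part of gene length in these differences was not tested.

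The genes whose profile over the 6 arrays was nearest to that of CCND2, by the root mean square difference of their centred log2 intensities, were GCNT3 (0.355), a mucin-type glycosyltransferase, UGT1A6 (0.457), a glucuronosyltransferase, CEACAM6 (0.617), a cell adhesion glycoprotein, HBE1 (0.755), an embryonic globin, and LARP6 (0.769), an RNA-binding protein. Of them GCNT3 read 6328 and 6678 in shLGR5-1 cells and 27.4 and 42.4 in shLGR5-2 cells, against 13305 and 13705 in shCTL cells, the same order of groups as CCND2. The 5 nearest to CDK6 were ACAD11 (0.126), an acyl-CoA dehydrogenase, SMARCAD1 (0.188), a chromatin remodeller, CDC42SE2 (0.251), a CDC42 effector, DRAM2 (0.272), an autophagy regulator, and REEP5 (0.274), a protein that shapes the endoplasmic reticulum. ACAD11 read 8.6 and 8.2 in shLGR5-1 cells and 93.0 and 93.0 in shLGR5-2 cells, against 508.4 and 534.6 in shCTL cells. These 10 genes lie on other chromosomes than the member they resemble.

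The 3 nearest tested genes on each side of a member were taken by position, after the members' values were seen. Of the 6 around CCND1, 5 rose and 0 fell under shLGR5-1, where CCND1 overlapped the control, and 3 fell and 0 rose under shLGR5-2, where CCND1 was higher. Among them ANO1, a calcium-activated chloride channel, was not above the threshold on either shLGR5-2 array and was at least 18.7-fold lower than in shCTL cells (adjusted p = 0.000135 by limma). Of the 6 around CCND2, 2 rose and 3 fell under shLGR5-1, and 2 fell and 0 rose under shLGR5-2. The adjacent gene TIGAR differed from shCTL by 0.38 on the log2 scale under shLGR5-2 (adjusted p = 0.0572 by limma), where CCND2 was at the noise. Of the 6 around CDK6, 4 fell and 0 rose under shLGR5-1 and 3 fell and 0 rose under shLGR5-2. Under shLGR5-1 FAM133B fell by 2.83 on the log2 scale (adjusted p = 0.000605 by limma) and BET1 by 1.72 (0.000770). VPS50, not above the threshold on either shLGR5-1 array, was at least 7.65-fold lower than in shCTL cells (adjusted p = 0.000149 by limma). The fourth, SAMD9, was kept through shCTL alone, as was PARP11 beside CCND2, so that a fall was bound to appear. The shares over all genes given above for each direction stand beside these counts, and nothing particular to a neighbourhood is read from them. RBM48, also beside CDK6, was not called, at 0.27 (adjusted p = 0.127 by limma).

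Other genes at the INK4 locus were called as well. MTAP, an enzyme of methionine salvage next to CDKN2A, read 131.2 and 153.2 in shLGR5-1 cells and 597.1 and 551.4 in shLGR5-2 cells, against 652.2 and 632.3 in shCTL cells. It fell 4.17-fold under shLGR5-1 (adjusted p = 0.000245 by limma). There CDKN2A overlapped the control by the probe annotated to p16 but not by the probe annotated to ARF. MTAP was not called under shLGR5-2 (adjusted p = 0.358 by limma), where CDKN2A was below the threshold. CDKN2B-AS1, the antisense RNA across CDKN2B, read 26.1 and 9.5 in shLGR5-1 cells and 16.9 and 4.30 in shLGR5-2 cells, against 38.7 and 66.9 in shCTL cells. Like CDKN2B it was kept through shCTL alone, so that a fall was bound to appear. Its log2 difference under shLGR5-2 of -1.38 ± 0.38 (adjusted p = 0.0382 by limma) was no longer called without any 1 of the 4 arrays compared (adjusted p 0.0603 to 0.182) or with the replicate number as a block (0.0589). KLHL9 and CAAP1, farther out on either side, fell under shLGR5-1 by 4.11 and 2.23 on the log2 scale (adjusted p = 0.000134 and 0.00314 by limma).

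**Figure D3:**
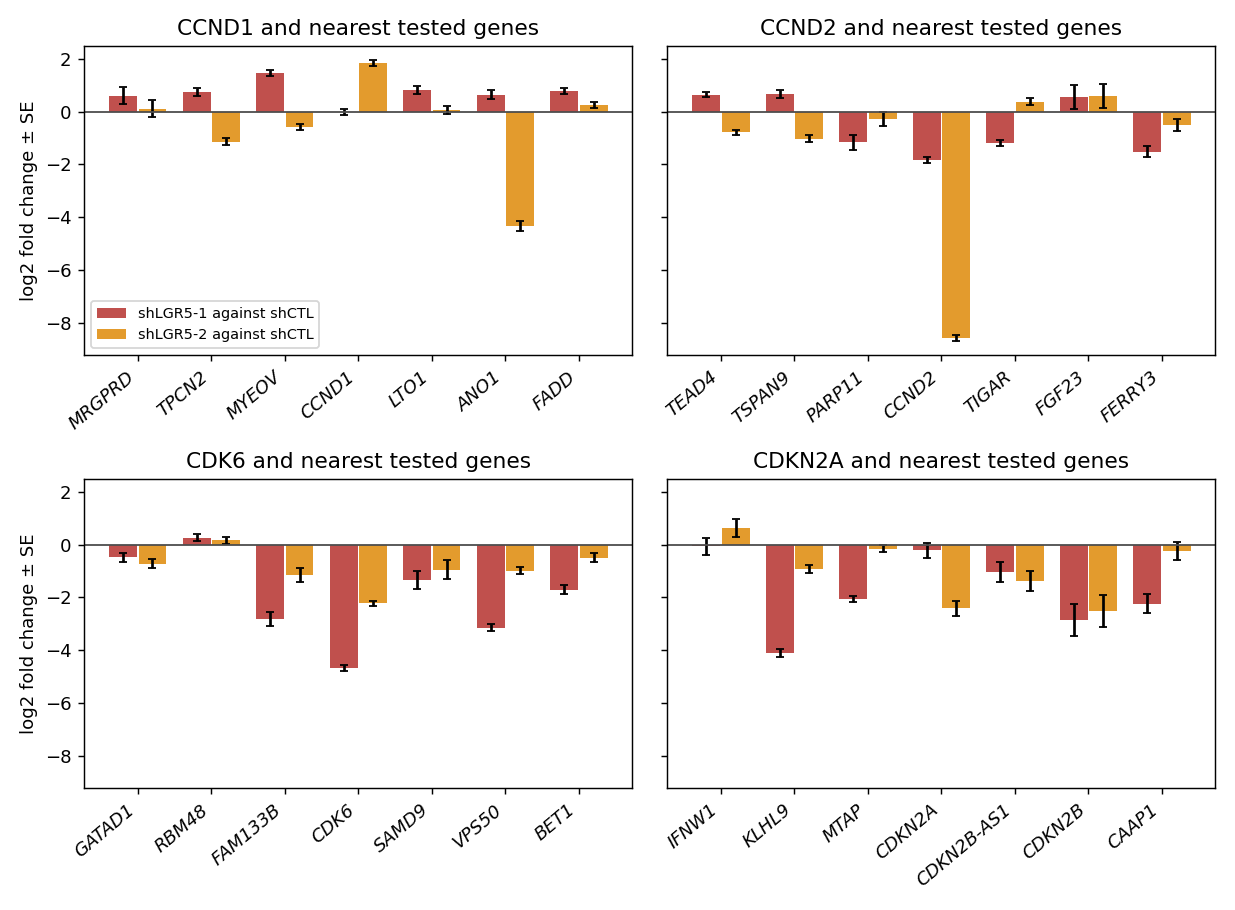
Log2 difference from shCTL, as bars with 1 SE, for 4 of the members and the 3 nearest tested genes on each side, in the order of their positions along the chromosome, under shLGR5-1 and under shLGR5-2. CDK6 at -4.67 under shLGR5-1 lies beside FAM133B at -2.83 and BET1 at -1.72. CCND2, CDKN2A and ANO1 under shLGR5-2, and VPS50, SAMD9 and PARP11 under shLGR5-1, had neither array above the threshold, so the sizes of their bars depend on the offset.

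Beyond the members, 85 other genes of the pathway were listed by their roles, and 79 of the 81 with a probe were tested. Under shLGR5-1, 32 rose and 33 fell, with a median log2 fold change of 0.11, against 0.28 over all genes tested; with arrays centred on their medians the lists' median was -0.01. Under shLGR5-2, 29 rose and 19 fell, with a median of 0.16, against -0.003 over all genes tested. Without shCTL replicate 1 or shLGR5-2 replicate 2, 18 and 19 rose there. Over all genes tested, 40.3% rose and 31.5% fell under shLGR5-1, and 21.6% rose and 22.6% fell under shLGR5-2, and nothing particular to a list is read from its counts. All p-values for these genes are limma's, adjusted over all genes.

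Of the other kinase inhibitors, CDKN1A, which encodes p21, read 2838 and 3112 in shLGR5-1 cells and 530.1 and 644.9 in shLGR5-2 cells, against 2931 and 3532 in shCTL cells. It fell 5.38-fold under shLGR5-2 (limma adjusted p = 0.000561) and was not called under shLGR5-1 (adjusted p = 0.561), and the difference between shLGR5-2 and shLGR5-1 was itself called (log2 -2.31, adjusted p = 0.000249). CDKN2D, the INK4 inhibitor p19, was the one INK4 gene with a probe whose intensity was higher with both hairpins. It read 192.6 and 159.3 in shLGR5-1 cells and 172.6 and 183.1 in shLGR5-2 cells, against 99.7 and 59.9 in shCTL cells. It rose 2.04-fold under shLGR5-1 (limma adjusted p = 0.0118) and 2.07-fold under shLGR5-2 (0.0195). The call under shLGR5-2 was lost without shCTL replicate 2 (0.0570) or shLGR5-2 replicate 1 or 2 (0.0801 and 0.0933). CDKN1C, which encodes p57, rose 1.95-fold under shLGR5-1 (adjusted p = 0.00178), and its 1.53-fold rise under shLGR5-2 (0.0151) was lost without either shCTL array (0.0529 and 0.0794) or shLGR5-2 replicate 2 (0.0588).

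Of 11 tested genes for pocket proteins, E2F and DP factors, 7 fell and 2 rose under shLGR5-1, with a median of -1.13. Under shLGR5-2, 2 fell and 3 rose, with a median of 0.08, and 1 rose without shCTL replicate 1 or either shLGR5-2 array, 2 without shCTL replicate 2. With either shLGR5-1 array left out of the shared fit, 4 fell and 4 rose under shLGR5-2. RBL1 and RBL2, the relatives of RB1, had its pattern. RBL2 read 33.7 and 45.5 in shLGR5-1 cells and 410.2 and 399.3 in shLGR5-2 cells, against 247.8 and 287.5 in shCTL cells, and fell 5.12-fold under shLGR5-1 (limma adjusted p = 0.000285). RBL1 read -2.30 and 1.70 in shLGR5-1 cells and 87.6 and 101.8 in shLGR5-2 cells, against 41.4 and 59.9 in shCTL cells, so that shLGR5-1 lay at least 3.03-fold below shCTL (adjusted p = 0.000614). Their rises under shLGR5-2 were small, 1.49-fold for RBL2 (adjusted p = 0.0359) and 1.67-fold for RBL1 (0.0254). That of RBL2 was lost without any 1 of the 4 arrays compared (0.0809 to 0.158), and that of RBL1 without shCTL replicate 1 (0.0961) or either shLGR5-2 array (0.0672 and 0.111). E2F2 went the other way, 1.61-fold up under shLGR5-1 (adjusted p = 0.00489) and 2.72-fold down under shLGR5-2 (0.000989), as did E2F4, 1.54-fold up (0.00433) and 1.56-fold down (0.00796).

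The CDK-activating kinase, which phosphorylates CDK4 and CDK6 in their activation loop, had all 3 genes called lower under shLGR5-1 and 2 under shLGR5-2, or 1 without any 1 of the 4 arrays compared. CDK7, its catalytic subunit, read 835.8 and 1126 in shLGR5-1 cells and 1170 and 1404 in shLGR5-2 cells, against 4887 and 5274 in shCTL cells. It fell 5.16-fold under shLGR5-1 (limma adjusted p = 0.000450) and 3.93-fold under shLGR5-2 (0.00153). CCNH, its cyclin, fell 4.46-fold under shLGR5-1 (adjusted p = 0.00317), and its 2.20-fold fall under shLGR5-2 (0.0454) was lost without any 1 of the 4 arrays compared (0.0595 to 0.191) and with the replicate number as a block (0.0804).

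Of the 12 genes for the turnover of D cyclins and p27, 4 rose and 5 fell under shLGR5-1, and 4 rose and 3 fell under shLGR5-2. The number that rose depended on single arrays: without shCTL replicate 1, 1 rose under shLGR5-1 and 0 under shLGR5-2. Under shLGR5-2, 1 rose without shCTL replicate 2 and 2 without either shLGR5-2 array, while 5 fell with either shLGR5-1 array left out of the shared fit. CUL1, the scaffold of SCF ubiquitin ligases, fell 5.93-fold under shLGR5-1 (limma adjusted p = 0.000415). SKP2, the F-box protein that targets p27, fell 2.42-fold under shLGR5-1 by its brightest probe (adjusted p = 0.00149), while another of its probes differed by 0.59 on the log2 scale in the opposite direction. FBXO4, an F-box protein reported to act on cyclin D1, fell 1.57-fold under shLGR5-1 (adjusted p = 0.00383) and 1.79-fold under shLGR5-2 (0.00351).

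After the restriction point, 4 of 9 tested cyclin, kinase and CDC25 genes rose and 5 fell under shLGR5-1, and 3 rose and 2 fell under shLGR5-2, where 2 rose and 0 fell without shCTL replicate 1. CDC25B, a phosphatase that activates cyclin-dependent kinases, rose 3.21-fold under shLGR5-1 (limma adjusted p = 0.000388) and 2.70-fold under shLGR5-2 (0.00119). CCNE1, the cyclin partner of CDK2 in late G1, rose 2.85-fold under shLGR5-1 (adjusted p = 0.000404) and 2.11-fold under shLGR5-2 (0.00217) by its brightest probe, and neither call held for the mean of its probes (0.149 and 0.325). CCNB1, the mitotic cyclin, fell 4.07-fold under shLGR5-1 (adjusted p = 0.000241), and its 1.63-fold fall under shLGR5-2 (0.00890) was lost without shCTL replicate 1 (0.0517).

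Of 17 tested E2F target genes of S phase, 10 rose and 5 fell under shLGR5-1, and 10 rose and 2 fell under shLGR5-2, with medians of 0.42 and 0.82. Under shLGR5-1, 6 rose and 5 fell without shCTL replicate 2, and 6 rose and 4 fell without shLGR5-1 replicate 1. Under shLGR5-2, 9 rose and 1 fell with a floor of 1 or with the replicate number as a block. Fewer fell there without any 1 array, and fewer rose without any 1 of the 4 arrays compared. The list's median then lay between 0.775 and 0.875. TK1, thymidine kinase, rose 3.37-fold under shLGR5-1 (limma adjusted p = 0.000502) and 3.82-fold under shLGR5-2 (0.000780). The subunits of ribonucleotide reductase, which makes deoxynucleotides, differed between the hairpins. RRM1 read 364.3 and 516.3 in shLGR5-1 cells and 9943 and 8949 in shLGR5-2 cells, against 4611 and 5403 in shCTL cells. It fell 11.1-fold under shLGR5-1 (limma adjusted p = 0.000230), and its 1.89-fold rise under shLGR5-2 (0.0195) was lost without any 1 of the 4 arrays compared (0.0669 to 0.109). RRM2 rose 6.04-fold under shLGR5-2 (adjusted p = 0.000248) and was not called under shLGR5-1 (0.249).

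Of 16 tested transcription factors known to act on D cyclin or p27 genes, 8 rose and 3 fell under shLGR5-1, and 6 rose and 6 fell under shLGR5-2. TCF7L2 and LEF1, through which beta-catenin acts, rose with both hairpins. CTNNB1, which encodes beta-catenin itself and was added after its values were seen, did not. It fell 2.26-fold under shLGR5-1 (limma adjusted p = 0.00328) and rose 2.11-fold under shLGR5-2 (0.00872). TCF7L2 read 112.7 and 113.9 in shLGR5-1 cells and 197.0 and 292.0 in shLGR5-2 cells, against 21.3 and 16.8 in shCTL cells. It rose 3.70-fold under shLGR5-1 (limma adjusted p = 0.00101) and 7.32-fold under shLGR5-2 (0.000655). Both shCTL arrays were only just above the threshold, so these sizes depend on the offset. LEF1 rose 1.43-fold under shLGR5-1 (adjusted p = 0.00955) and 3.89-fold under shLGR5-2 (0.000342). EGR1, an immediate early gene, rose 7.46-fold under shLGR5-1 (adjusted p = 0.000219) and 11.2-fold under shLGR5-2 (0.000211). FOXO3, an activator of CDKN1B, fell 5.92-fold under shLGR5-1 (limma adjusted p = 0.000392) and was not called under shLGR5-2 (0.652), by its brightest probe. Its other probes differed from shCTL by -1.75 and -0.57 on the log2 scale under shLGR5-1. Under shLGR5-2 they differed by -0.035 and -1.26, the latter by a probe with a mean of 24.3 in shCTL cells. STAT5A rose 2.06-fold under shLGR5-1 (adjusted p = 0.00617) and fell 3.17-fold under shLGR5-2 (0.00283).

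Of 6 tested Polycomb genes, whose products silence the INK4 locus, 2 rose and 4 fell under shLGR5-1 and 1 rose under shLGR5-2. SUZ12 read 106.0 and 279.2 in shLGR5-1 cells and 3943 and 3416 in shLGR5-2 cells, against 2682 and 3106 in shCTL cells, and fell 15.3-fold under shLGR5-1 (limma adjusted p = 0.000989). BMI1 fell 12.7-fold there (adjusted p = 0.000993). RING1 rose 2.63-fold under shLGR5-1 (adjusted p = 0.000420) and 2.02-fold under shLGR5-2 (0.00214).

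**Figure D4:**
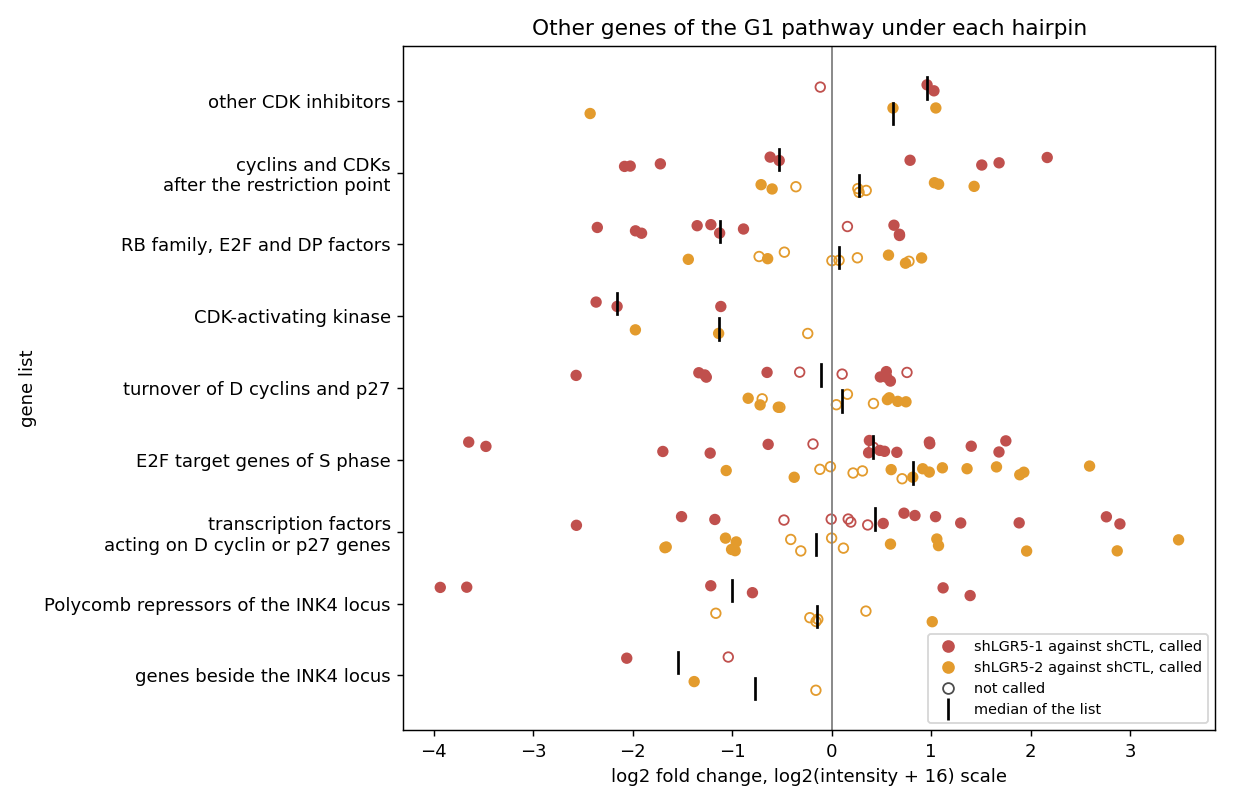
Log2 fold change against shCTL of the 79 tested pathway genes by list, under shLGR5-1 (upper row of a list) and shLGR5-2 (lower row); filled points are called at an adjusted p below 0.05, open points are not, and a black line is the median of the list. The median of the RB family and E2F list is -1.13 under shLGR5-1 and 0.08 under shLGR5-2, and that of the E2F target genes is 0.42 and 0.82.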

How the data were processed

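RNA of 6 LoVo samples was hybridised to Illumina bead arrays. The deposited table holds 1 linear intensity per probe and array. The authors had subtracted background and applied quantile normalization, judging from the values: 30.5% lie below 0 on each array, and arrays differ by at most 0.7 at any rank. GenomeStudio is named in the submitters' processing notes. The method of background estimation was not given in these sources. Another 12 value columns carry names that fit no label and stayed unused.

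Values were set to at least 0, 16 was added and log2 was taken, which understates differences of dim genes. The noise threshold of 16.5 is 1.645 times the root mean square of values below 0 (10.0). A probe was kept if above it on both arrays of a group (21792 probes). Probes were named through the platform annotation, with symbols updated through RefSeq (GRCh38.p14): 30113 had 1 gene, 8 several and 17202 none, and 30074 of the first were matched by Entrez identifier, 18 by accession and 21 kept as given. The brightest kept probe stood for each of 12111 genes, and other probes of the members were fitted over all kept probes.

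The 6 arrays were fitted together by group (limma 3.58.1, R 4.3.3, lmFit and eBayes). The fit had first been run on simulated data in which only a small part of the probes changed. That run does not cover data where as many genes are called as here. Two-sided p-values were adjusted over genes (Benjamini-Hochberg) and called below 0.05. A group with neither array above the threshold gives a bound: the brighter group's mean log2 intensity against dim values set to the threshold, without the offset. Whether replicates were separate cultures is not stated, so the spread behind the p-values may be technical only. No slide or scan date was given to test as a batch, and the array number limits precision.

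The members and lists were chosen with earlier results of these data known. Named were every member, LGR5, up to 4 called genes per pathway list and hairpin with the smallest adjusted p, and the 5 genes most like CCND2 and the next most variable member; a selection of the list genes is given. Alternatives were another offset, a floor of 1, no filter and a strict one, the mean of probes, median centring, the replicate block and leaving out each array.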

Additional observations from a re-analysis of the deposited data

Results flagged for a closer look

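RB1 and CDK4 are set apart because both arrays of 1 hairpin lay on 1 side of the controls and both arrays of the other hairpin on the opposite side. The log2 difference of shLGR5-2 minus shLGR5-1 was 3.91 for RB1 and -0.92 for CDK4. Neither shLGR5-1 array was above the threshold for RB1, so the bound is at least 16.4-fold higher under shLGR5-2. Both genes are among the 6 members called between the hairpins in the fit across all genes, and since the members were chosen with these arrays known, that call is a description and not independent evidence.

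The same split was seen in pathway genes by the brightest probe. Other list genes than those selected for naming had it too. Among them were CTNNB1 (log2 differences from shCTL of -1.174 under shLGR5-1 and 1.075 under shLGR5-2), PCNA (-0.64 and 0.60), CDT1 (0.53 and -1.06) and MCM7 (0.38 and -0.38). The share of all genes with such a split was not counted. For the genes listed below, the adjusted p is from limma's test of shLGR5-2 against shLGR5-1, which called 73.3% of all genes. That test does not ask on which side of shCTL a hairpin lies. Against shCTL, SUZ12 (limma adjusted p = 0.547) and SKP2 (0.0862) were not called under shLGR5-2, nor RRM2 under shLGR5-1 (0.249). Higher under shLGR5-2 were the RB1 relatives RBL1 (fitted log2 difference 2.71, adjusted p = 0.000206) and RBL2 (2.93, 0.000123), the Polycomb gene SUZ12 (4.28, 0.000665), RRM1 (4.39, 9.05e-05), RRM2 (2.78, 9.44e-05) and the replicative helicase gene MCM6 (2.51, 7.94e-05). The ubiquitin ligase genes SKP2 (1.70, 0.000547) and CUL4A (2.00, 0.000498) were also higher, and other probes of SKP2 gave 0.45 and 2.37. By the first of these other probes SKP2 showed no split, with log2 differences from shCTL of 0.59 under shLGR5-1 and 1.04 under shLGR5-2. The rise of CUL4A over shCTL under shLGR5-2 (limma adjusted p = 0.0359) was lost with a floor of 1 (0.0587) and with no filter (0.0766). By its other probe CUL4A differed from shCTL by 0.21 there. For RBL1, with neither shLGR5-1 array above the threshold, the bound is at least 5.74-fold. Lower under shLGR5-2 were E2F2 (-2.12, 0.000142), E2F4 (-1.27, 0.000403), FBXO31 (-1.27, 0.000372), FOXO4 (-2.26, 0.000161) and STAT5A (-2.71, 0.000267).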

How the results depend on the processing

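Of 339 member differences recomputed under the alternatives, 292 moved by less than the replicate spread or not at all, 47 moved further and no called one changed sign. Many of the 292 could not move, so that count does not measure robustness. The filters and the replicate block left a member's difference as it was. So did leaving out an array of the group not compared, and the mean of probes for genes with 1 probe. With an offset of 50 the CCND2 difference under shLGR5-2 was -6.95, with a floor of 1 it was -12.58 and with the mean of its probes -7.09, so its size is a matter of scale and probe. Requiring all 6 arrays above the threshold left 7975 genes tested, removed CCND2, CDKN2A, CDKN2B and RB1 and left 4 members called under each hairpin. Under shLGR5-1, 2247 genes were then called lower, against 3816, and 4273 higher, against 4885. Between shLGR5-2 and shLGR5-1, 2503 were called higher, against 4067. This filter drops every gene at the noise in any group, so that a gene that fell to the noise was not tested. Under a floor of 1, CDKN2B lost its call with both hairpins and RB1 under shLGR5-2, and CDKN2B lost it under shLGR5-2 with no filter. CDKN1B gained a call between the hairpins with an offset of 50, the strict filter and median centring.

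Leaving out 1 array gave 3148 to 5917 called genes under shLGR5-2, against 5349 with all arrays, 1533 to 2887 higher and 1615 to 3030 lower, with 18 to 31 pathway genes higher. The lowest counts came without shCTL replicate 1. Median centring moved the median of all genes under shLGR5-1 to 0.16, against 0.28, changed the sign of no single list's median against shCTL but turned that of all pathway lists together under shLGR5-1 (-0.01, against 0.11), and 8 of 17 E2F target genes then rose under shLGR5-1.

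Same-numbered arrays share only a number: deviations correlated at 0.0168 (shLGR5-1 with shCTL), 0.00680 (shLGR5-2 with shCTL) and 0.00210 (the hairpins). With the replicate block, 8578, 4911 and 8764 genes were called, against 8701, 5349 and 8883, and no member's call changed. The number of arrays and signals near background limit every dim member.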
